A study of Mus musculus with 6 samples.

Results

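The nuclear genes of respiratory chain complexes III and IV, of ATP synthase (complex V) and of cytochrome c were followed in the RNA of mouse synaptoneurosomes, a preparation of pinched-off synaptic terminals and the dendritic spines attached to them. The members were chosen by name, as the genes whose symbol begins with Uqc, with Cox and a digit, or with Atp5, together with Cyc1, Cycs and Atpif1. The rule found 58 of the 21958 protein-coding genes in the table, of which 12 belong to complex III, 27 to complex IV and 18 to complex V, with the carrier Cycs beside them. At least 1 count was present for 57 of them, and 52 passed the filter on low counts, which kept 12255 genes in all.

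RNA was taken from the hippocampus and adjacent cortex of FVB mice of 6 to 8 weeks. In the first group, NMDA polyribosomes (n = 3), synaptoneurosomes received 50 µM NMDA with 10 µM glutamate for 30 s, then 120 µM of the NMDA receptor antagonist APV, and RNA was taken after 20 min from the pooled light and heavy polyribosome fractions, without RNA granules. The second group, unstimulated total (n = 3), held the whole RNA of an aliquot set aside without stimulation. The methods describe unstimulated controls in general as held on ice with cycloheximide, an inhibitor of translation, and stimulated aliquots as incubated warm. Stimulation, incubation and fraction changed together, so their effects cannot be told apart, and each preparation pooled several mice and was split into aliquots. In such a pooled preparation, fewer terminals or cells of a type and less RNA in each of them cannot be told apart either.

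The 6 libraries held between 1044955 and 7361580 counts, and the 3 polyribosome libraries were all deeper than the 3 total RNA libraries. Of the members, 57 had a count in each polyribosome library and between 54 and 56 in the total RNA libraries. The 9 neuronal markers examined were present in every library, with a summed level of 11420 to 14430 CPM (counts scaled to library size, with TMM factors) on polyribosomes and 10390 to 11890 in total RNA. Markers of other cells were present too. The summed level of 8 astrocyte markers ranged from 44440 to 48730 CPM on polyribosomes and from 34210 to 40060 in total RNA, that of 6 oligodendrocyte markers from 10260 to 14160 and from 7563 to 10680, that of 7 microglial markers from 748.3 to 888.7 and from 516.9 to 670.8, and that of 5 endothelial markers from 249.4 to 472.9 and from 262.7 to 282.9. No marker was at 0. The fold changes of all 8 astrocyte, all 6 oligodendrocyte and all 7 microglial markers were positive, with median log2 fold changes of 0.57, 0.38 and 0.36, against 0.07 for the neuronal markers. With the replicate block and the offset for GC content and length, both described below, these medians were 0.62, 0.24 and 0.22, against 0.23. With the block alone, 4 of the 9 neuronal markers were called higher (11.8% of all genes) and 1 lower (13.2%). The astrocyte, oligodendrocyte and microglial lists moved in the direction of most members described below, and their part in those results was not tested.

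Complex III passes electrons from ubiquinol to cytochrome c, complex IV passes them from cytochrome c to oxygen, and both pump protons across the inner mitochondrial membrane. Complex V lets the protons flow back through a rotating ring of c subunits and uses the rotation to make ATP in its F1 head. Nearly all subunits are encoded in the nucleus, made on cytosolic ribosomes and imported, whereas cytochrome b, the catalytic core of complex IV and a few membrane subunits of complex V are encoded by mitochondrial DNA. In neurons these complexes supply much of the ATP that synaptic transmission consumes.

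The c ring shows what a count for a single member rests on. Atp5g1, Atp5g2 and Atp5g3 encode preproteins of 136, 146 and 141 residues whose last 78 residues, which include the mature c subunit, are identical. Only the bases of the transcripts tell the genes apart in that stretch. Over its 234 coding bases, Atp5g1 and Atp5g2 differed at 36 positions (84.6% identity), Atp5g1 and Atp5g3 at 50 (78.6%), and Atp5g2 and Atp5g3 at 53 (77.4%). The last 90 coding bases before the stop codon are given below in mRNA sense from Gencode vM21 transcripts (GRCm38, minus strand, within a single coding exon each), and capitals mark the 24 positions at which the 3 genes do not all share the base. They lie at chr11:96073107-96073196 for Atp5g1, chr15:102663017-102663106 for Atp5g2 and chr2:73908596-73908685 for Atp5g3.
Atp5g1: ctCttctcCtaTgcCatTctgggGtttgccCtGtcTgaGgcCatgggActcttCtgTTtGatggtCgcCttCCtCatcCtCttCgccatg
Atp5g2: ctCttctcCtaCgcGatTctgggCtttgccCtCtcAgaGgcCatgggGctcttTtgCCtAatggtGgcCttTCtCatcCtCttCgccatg
Atp5g3: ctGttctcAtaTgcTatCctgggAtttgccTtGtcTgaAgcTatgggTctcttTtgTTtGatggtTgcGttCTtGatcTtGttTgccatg
The capitals are spread along the whole stretch, so a read of ordinary length from this part of the mRNA covers several of them.

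Across the 3 complexes, most members were more abundant on polyribosomes relative to all genes, by a modest amount. The log2 fold change, polyribosomes over total RNA, was positive for 43 of the 52 members tested (82.7%), against 50.1% of all genes tested. Its median was 0.46 for the members and 0.00 over all genes. Counts of the members made up 0.540%, 0.535% and 0.605% of the polyribosome libraries and 0.447%, 0.431% and 0.393% of the total RNA libraries, so the groups did not overlap, and the ratio within the 3 same-numbered pairs was 1.21, 1.24 and 1.54.

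Few members passed the test without pairing. In edgeR's quasi-likelihood fit, with p-values adjusted by Benjamini and Hochberg's method over all genes tested and a threshold of 0.01, 4 members were higher on polyribosomes, where the share called higher over all genes was 0.710%, and 2 were lower, where it was 2.36%. The members that rose were Atp5d, Atp5g3, Cox5a and Cox6a1, and those that fell were Cox17 and Cox7a2l. At an unadjusted p under 0.05, 29 members were higher (15.4% of all genes) and 2 lower (17.1%). None of the 6 calls was independent of the libraries used. With polyribosome replicate 2, total RNA replicate 1 or total RNA replicate 2 left out, edgeR called 0 members in either direction, although between 23 and 25 were then higher and 2 lower at an unadjusted p under 0.05. Over the whole table, those fits called only 11, 2 and 0 genes higher and 46, 64 and 22 lower. Without polyribosome replicate 1 or 3 or total RNA replicate 3, edgeR called 1, 2 and 3 members higher and 1 lower in each case. The genes called over the whole table were then 48, 42 and 61 higher and 151, 208 and 197 lower.

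The replicate numbers paired the libraries, since same-numbered ones came from the same preparation, and the fit with the replicate number as a block called more. In it, 25 members were higher (11.8% of all genes were) and 2 were lower (13.2%). All 6 calls of the unpaired fit were among these 27. The 25 comprised 8 genes of complex III, 6 of complex IV, 10 of complex V and Cycs. By DESeq2 without the block, 10 were higher (3.19% of all genes with an adjusted p) and 1 lower (3.77%), with no adjusted p given for Cox17. In the individual pairs, 42, 44 and 44 of the 52 members were higher on polyribosomes, and the median log2 fold changes were 0.29, 0.35 and 0.62. All 3 pairs were positive for 40 members (30.2% of all genes) and negative for 6 (30.6%). All 3 polyribosome libraries lay above all 3 total RNA libraries for 33 members (17.4%) and below them for 2 (18.9%).

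**Figure D1:**
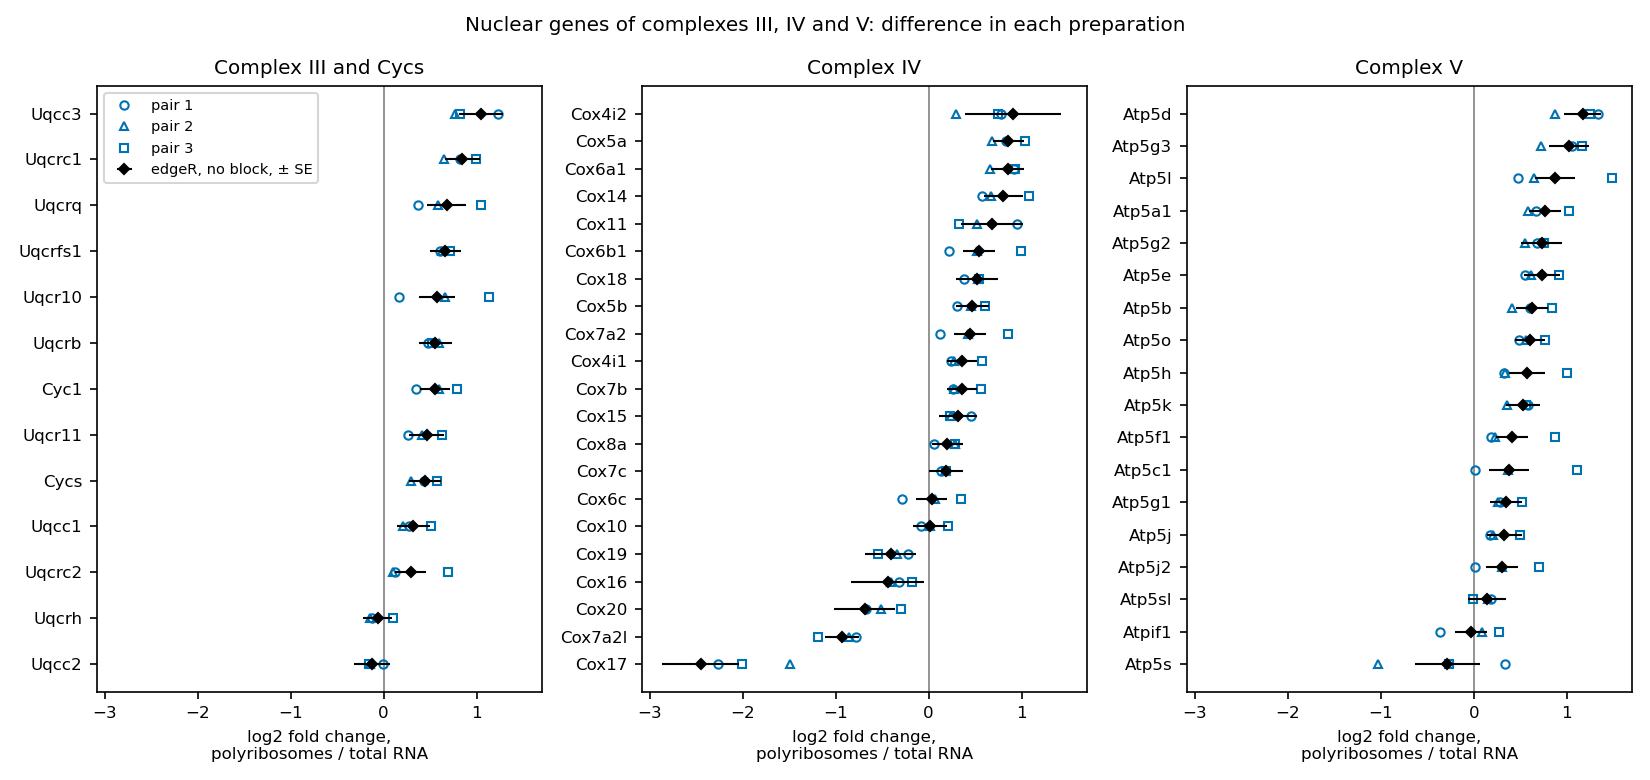
Log2 fold change of the 52 members tested, polyribosomes over total RNA, in complex III with Cycs, complex IV and complex V. Open symbols are the 3 same-numbered pairs, and diamonds with bars are the edgeR estimate without the block ± SE (n = 3 per group). In complexes III and V nearly all estimates lie to the right of 0, while complex IV also holds Cox17 and Cox7a2l on the left.

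GC content and transcript length moved with the comparison over the whole table. The Spearman correlation of GC content with log2 fold change was 0.538 across 12212 genes and 0.349 across the 52 members, and that of length was -0.290 and -0.116. These are correlations across genes that share the same libraries. The members had short transcripts (median 746 bases, against 2914 over all genes tested) of similar GC content (51.6% against 50.8%). With an offset for both properties added to the block, 13 members were higher (7.79% of all genes) and 3 lower (6.36%), and the median log2 fold change was 0.28 where it had been 0.42 with the block alone. Of the 25 members higher with the block, 11 were also called with the offset, namely Cycs, Uqcc3, Uqcrc1, Uqcrfs1, Uqcrb, Cox5a, Atp5a1, Atp5b, Atp5d, Atp5g3 and Atp5l. Uqcrc2 and Cox7b were called higher, and Uqcc2 lower, only in the fit with the offset among the 2 blocked fits. With the offset and no block, edgeR called 0 members higher and 2 lower, where 22 were higher and 3 lower at an unadjusted p under 0.05. Over all 12212 genes, that fit called 33 higher and 99 lower.

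**Figure D2:**
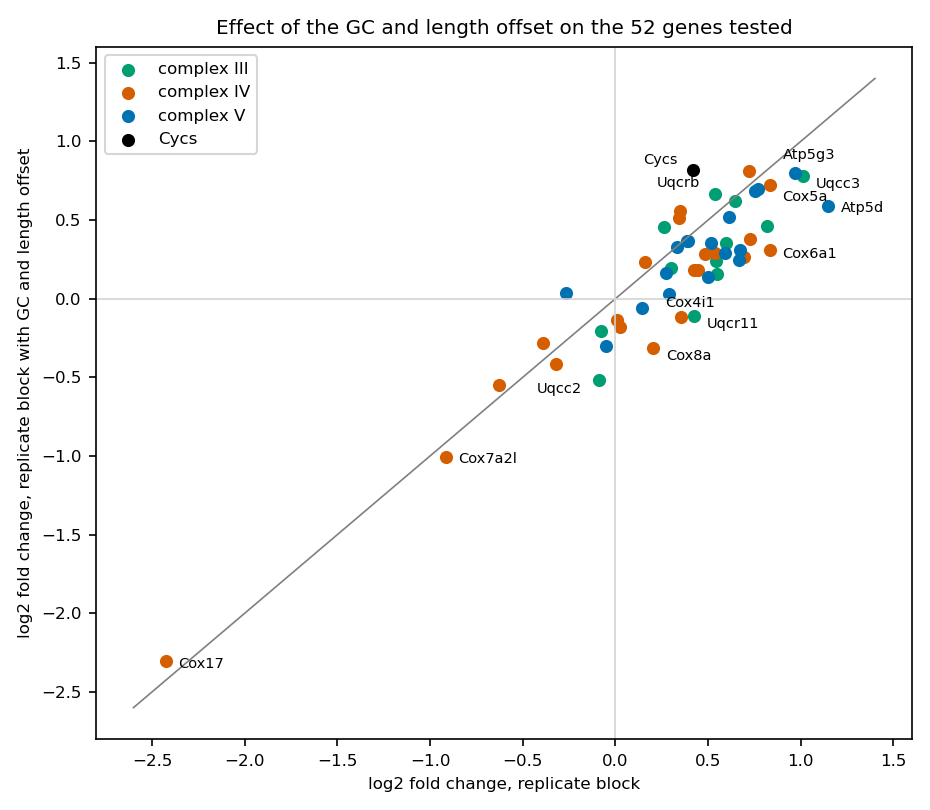
Log2 fold change of the 52 members tested with the replicate block (horizontal) and with the block and the offset for GC content and transcript length (vertical), coloured by complex, with the line of equal values. Most members lie below the line, with Cox6a1 moving from 0.83 to 0.31 and Cox4i1 from 0.36 to -0.12, while Cycs moves up from 0.42 to 0.82 and Cox7a2l and Cox17 stay negative.

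Complex III genes were higher on polyribosomes in 10 of 12 cases, with a median log2 fold change of 0.56. No gene of this complex passed the unpaired edgeR test in either direction. At an unadjusted p under 0.05, 8 were higher (15.4% of all genes) and 0 lower (17.1%), and DESeq2 called 2 higher (3.19%). With the block, 8 were called higher (11.8% of all genes) and none lower (13.2%). Both exceptions to the direction, Uqcrh and Uqcc2, had log2 fold changes close to 0 without the block, of -0.07 and -0.12. With the block and offset, 5 of 12 were called higher (7.79% of all genes) and 1, Uqcc2, was called lower (6.36%).

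Of the 4 core subunits, 3 rose in the blocked fit. Uqcrc1, a large subunit on the matrix side, had 1363, 1245 and 1282 counts on polyribosomes and 419, 356 and 138 in total RNA, or 212 ± 45.1 and 119 ± 14.2 CPM (SD, n = 3). The groups did not overlap, and the highest value was polyribosome replicate 3. Its log2 fold change was 0.82 with the block (SE 0.13, edgeR adjusted p = 8.97e-08) and 0.85 without it (adjusted p = 0.0116). Uqcrfs1 encodes the Rieske iron-sulphur protein, which takes the first electron from ubiquinol. It had 769, 634 and 597 counts on polyribosomes and 275, 184 and 78 in total RNA, equal to 107 ± 14.0 and 68.2 ± 6.59 CPM. Every polyribosome library was above every total RNA library, and the log2 fold change of 0.64 with the block (SE 0.13, edgeR adjusted p = 2.12e-05) was 0.62 once the offset was added.

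Cyc1 encodes cytochrome c1, the haem protein that hands electrons to cytochrome c. Its counts were 570, 579 and 404 on polyribosomes and 244, 172 and 50 in total RNA, or 82.5 ± 5.09 and 55.4 ± 6.61 CPM, without overlap. It rose by a log2 fold change of 0.54 with the block (edgeR adjusted p = 4.81e-04), and the value with the offset was 0.24 (adjusted p = 0.14). Uqcrc2, the partner of Uqcrc1, had 798, 661 and 612 counts against 398, 278 and 81. It stood at 111 ± 13.5 and 89.9 ± 10.9 CPM, with the groups just apart, and its log2 fold change of 0.26 with the block did not pass (edgeR adjusted p = 0.0952), whereas 0.46 with the offset did (adjusted p = 0.00353). The pairs gave 0.13, 0.10 and 0.69, and without pair 3 the value with the block was 0.10 (adjusted p = 0.487).

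The 5 supernumerary subunits, small proteins around the core without redox groups, included 4 that rose with the block. Uqcr10, Uqcr11, Uqcrb and Uqcrq had log2 fold changes between 0.42 and 0.60 in that fit. Of these, Uqcrb was the exception to the effect of the offset, since its value went from 0.54 to 0.67 (edgeR adjusted p = 3.01e-04), and the values of the other 3 with the offset, from -0.11 to 0.35, did not pass. Transcripts of 3 pseudogenes match Uqcrb, the longest over 336 bases at 98.2% identity, so its count is uncertain. Uqcrh, the hinge protein that contacts cytochrome c1, was at 73.4 ± 5.05 CPM on polyribosomes against 76.3 ± 5.13 CPM in total RNA, with overlapping groups.

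Of the 3 assembly factors, Uqcc3 rose with the block and the others did not pass in that fit. Uqcc3, which acts when cytochrome b is built in, had the highest log2 fold change of complex III, with or without the block. Its counts were low, at 108, 97 and 84 on polyribosomes and 24, 25 and 10 in total RNA, or 15.5 ± 1.55 and 7.97 ± 1.85 CPM, and the groups were well apart. On the log2 scale it rose by 1.01 with the block (SE 0.22, edgeR adjusted p = 9.7e-05) and by 0.78 with the offset (adjusted p = 0.00627). Uqcc2, which acts with Uqcc1 on newly made cytochrome b, was at the other end of the complex. It had 205, 189 and 104 counts against 112, 94 and 25, or 25.9 ± 3.88 and 27.8 ± 3.75 CPM, with overlapping groups. Its log2 fold change was -0.09 with the block (edgeR adjusted p = 0.698) and -0.52 with the block and offset (adjusted p = 0.00773). The log2 fold change of Uqcc1 was 0.30 with the block (edgeR adjusted p = 0.135).

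Cycs encodes cytochrome c itself, the mobile carrier between complexes III and IV. It had 425, 404 and 356 counts on polyribosomes and 171, 148 and 51 in total RNA, or 63.9 ± 8.33 and 47.0 ± 3.92 CPM, and the groups did not overlap. With the block it rose by 0.42 (SE 0.13, edgeR adjusted p = 0.00901), close to the threshold, and with the offset by 0.82 (adjusted p = 1.81e-06). Without pair 3 the value with the block was 0.36 and did not pass (adjusted p = 0.0158). Its transcript was long and poor in GC for a member, with a median of 3123 bases and 40.8% GC. Copies nearly identical to parts of Cycs exist elsewhere in the mouse genome, so its count is uncertain.

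Complex IV was the least uniform of the 3. Of its 21 members tested, 16 had a positive log2 fold change and the median was 0.36. Without the block 2 were higher (0.710% of all genes) and 2 lower (2.36%), and with it 6 were higher (11.8%) and 2 lower (13.2%). With the block and offset, 2 of 21 were higher (7.79% of all genes) and 2 lower (6.36%). The subunits and the assembly factors are described in turn, since 11 of 12 subunits tested but 5 of 9 assembly factors had positive values.

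Among the subunits, Cox5a and Cox6a1 rose in both fits. Cox5a, a nuclear-encoded subunit on the matrix side, had 664, 591 and 510 counts on polyribosomes and 202, 165 and 53 in total RNA. Its levels of 89.8, 89.0 and 105 CPM were all above the 50.2, 55.3 and 50.8 CPM of total RNA. Without the block it rose by 0.86 on the log2 scale (SE 0.16, edgeR adjusted p = 0.00600), and by 0.73 with the block and offset (adjusted p = 1.20e-05). Cox6a1 encodes the liver-type form of a subunit at the dimer contact of the enzyme. Its 1800, 1492 and 1435 counts against 519, 423 and 162 came to 243, 225 and 295 CPM against 129, 142 and 155, again without overlap. The log2 fold change was 0.85 without the block (SE 0.17, edgeR adjusted p = 0.00829). With the block and offset it was 0.31, which did not pass (adjusted p = 0.0428).

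Cox4i1 and Cox5b, of the regulatory subunits, differed less. Cox4i1, the subunit that binds ATP and ADP, was among the most abundant members, with 3367, 3291 and 2588 counts on polyribosomes and 1553, 1224 and 374 in total RNA, or 495 ± 38.7 and 385 ± 25.6 CPM. The libraries of the groups did not overlap, but the log2 fold change of 0.36 passed neither without the block (edgeR adjusted p = 0.141) nor with it (adjusted p = 0.0177), and its sign changed to -0.12 with the offset. Cox5b, the zinc-binding subunit, had 745, 874 and 681 counts against 328, 286 and 96, or 124 ± 20.7 and 89.8 ± 7.44 CPM, and rose by 0.44 with the block (edgeR adjusted p = 0.00312), a value of 0.18 with the offset (adjusted p = 0.253). Cox6b1 and Cox7a2 also rose with the block, by 0.53 and 0.42, and neither passed with the offset. The remaining subunits of this kind, Cox6c, Cox7b, Cox7c and Cox8a, had values from 0.02 to 0.35 with the block and none passed in that fit.

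Cox7a2l went the other way. It encodes a Cox7a-related protein that joins complexes III and IV into supercomplexes. Its 307, 219 and 138 counts on polyribosomes and 289, 180 and 68 in total RNA came to 41.5, 33.0 and 28.4 CPM against 71.8, 60.3 and 65.2, so that every polyribosome library was below every total RNA library. Values of log2 fold change were -0.94 without the block (SE 0.18, edgeR adjusted p = 0.00728) and -0.91 with it (adjusted p = 2.81e-08), and -1.01 with the offset (adjusted p = 6.45e-08). The pairs gave -0.78, -0.86 and -1.19. A pseudogene matches 342 bases of its transcripts at 98.0% identity.

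The tissue-restricted isoforms, known from muscle, lung or testis, were nearly absent. Cox8c had 0 counts among 27203418, which allows a level of up to 0.11 CPM over all libraries. Summed over the 6 libraries, the counts of the muscle isoforms Cox6a2, Cox7a1 and Cox8b were 15, 27 and 6, beside 5831, 3249 and 7612 for their ubiquitous counterparts Cox6a1, Cox7a2 and Cox8a. The testis isoforms Cox6b2 and Cox7b2 had 46 and 5 counts, beside 4228 for Cox6b1 and 2478 for Cox7b. Cox4i2, the isoform known from lung and from oxygen sensing, had 70 counts beside 12397 for Cox4i1 (0.561% of the pair), and it was the only restricted isoform that passed the filter. Its 15, 17 and 25 counts on polyribosomes and 4, 6 and 3 in total RNA gave overlapping levels of 3.25 ± 1.67 and 1.96 ± 0.943 CPM. The log2 fold change was 0.90 without the block, with an SE of 0.52 (edgeR adjusted p = 0.242). That was the highest of the complex IV genes tested in this fit, but with the block it was 0.70, below Cox5a, Cox6a1, Cox14 and Cox11, and without total RNA replicate 1 it was 0.44.

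The 9 assembly and haem A synthesis genes were weakly expressed and had a median log2 fold change of 0.01. Cox14, which acts on newly made Cox1 protein, rose with the block. It had 236, 217 and 228 counts against 86, 61 and 23, or 37.2 ± 8.46 and 21.3 ± 0.816 CPM without overlap, and its log2 fold change was 0.73 (edgeR adjusted p = 1.25e-04), while 0.38 with the offset did not pass (adjusted p = 0.0599). Cox10 and Cox15, the enzymes of haem A synthesis, had log2 fold changes of 0.01 and 0.35 with the block and did not pass, and neither did the copper protein Cox11 at 0.72 nor the membrane insertase Cox18 at 0.49. Those of Cox16, Cox19 and Cox20, which take part in building Cox1 and Cox2 and in handling their copper, were -0.39, -0.32 and -0.63, also without passing.

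Cox17, the copper chaperone that delivers copper towards complex IV, had the log2 fold change furthest from 0 of the members tested. It rested on few counts, 5, 6 and 3 on polyribosomes and 20, 10 and 4 in total RNA, even though the polyribosome libraries were deeper. Levels were 0.676, 0.904 and 0.618 CPM against 4.97, 3.35 and 3.84, with no overlap. The log2 fold change was -2.45 without the block (SE 0.42, edgeR adjusted p = 0.00345) and -2.31 with the block and offset (adjusted p = 1.77e-04). The gene shares 257 exonic bases on the same strand with the predicted gene Gm21987, so its count is uncertain. The filter of at least 10 counts in every library removes it.

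**Figure D3:**
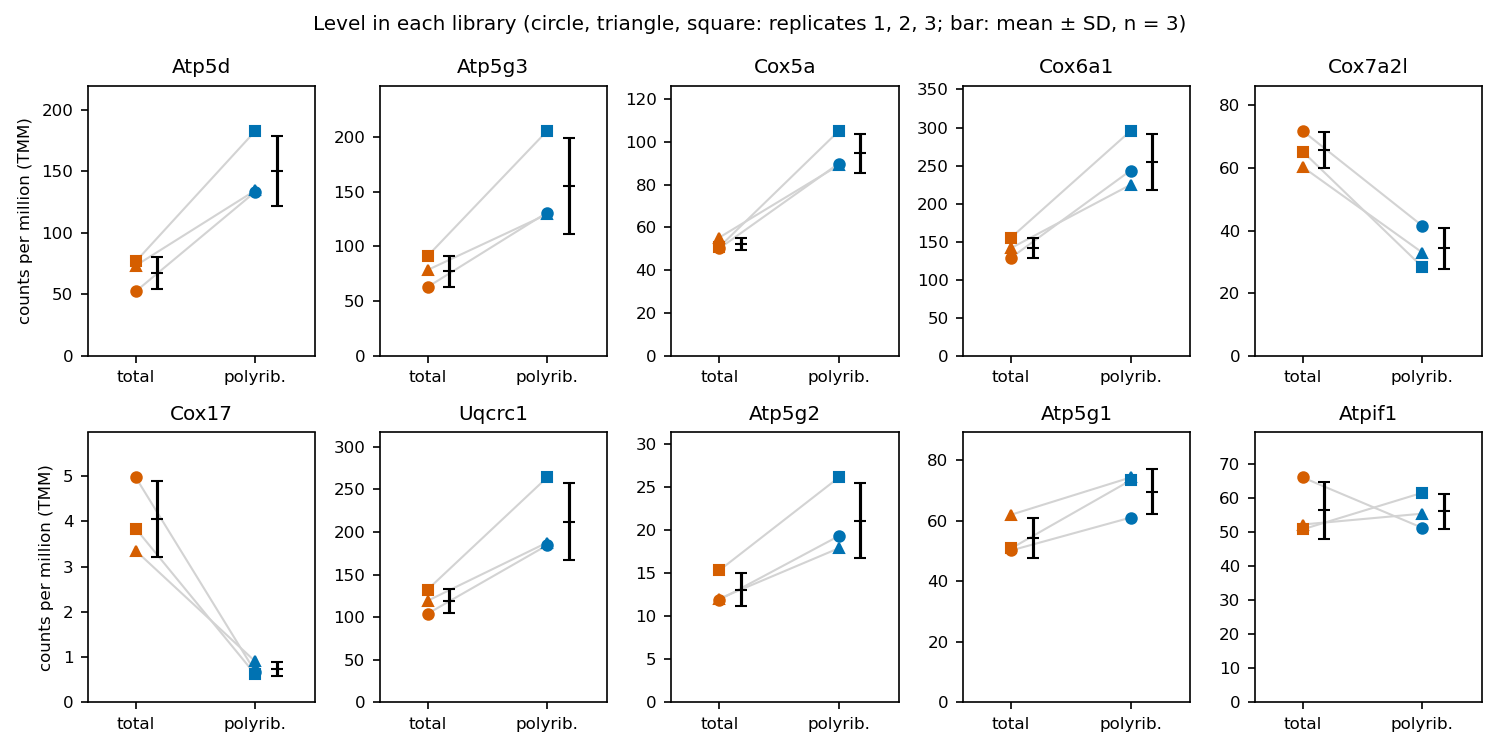
Level of 10 members in each library in TMM-scaled CPM, with total RNA at the left and polyribosomes at the right of each panel, lines joining same-numbered libraries, and mean ± SD (n = 3). The groups stand apart for Atp5d, Atp5g3, Cox5a, Cox6a1, Uqcrc1 and Atp5g2, in the opposite direction for Cox7a2l and Cox17, and overlap for Atp5g1 and Atpif1.

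In complex V, 16 of 18 members lay above 0 in log2 fold change, and the median was 0.55. Without the block 2 rose (0.710% of all genes) and none fell (2.36%). At an unadjusted p under 0.05, 11 were higher (15.4%) and 0 lower (17.1%), and DESeq2 called 6 higher (3.19%) and 0 lower (3.77%). With the block 10 rose (11.8% of all genes) and none fell (13.2%). With the offset added, 5 of 18 were called higher (7.79%) and 0 lower (6.36%).

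Of the 5 subunits of the F1 head, 4 rose with the block. Atp5d, the delta subunit of the central stalk, had the highest log2 fold change of the 52 members tested, with or without the block, though not with the offset, where Cycs, Cox11 and Atp5g3 were among those above it. It had 985, 892 and 887 counts on polyribosomes and 211, 219 and 80 in total RNA, or 133, 134 and 183 CPM against 52.4, 73.3 and 76.7. The lowest polyribosome library was well above the highest total RNA library. Its log2 fold change was 1.17 without the block (SE 0.20, edgeR adjusted p = 0.00336) and 1.15 with it (adjusted p = 2.02e-12), and 0.59 with the offset (adjusted p = 2.41e-04). At 60.7%, its GC content was high for a member.

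Atp5a1 and Atp5b encode the alpha and beta subunits, which form the catalytic hexamer. Atp5a1 had 4990, 4426 and 4166 counts on polyribosomes and 1705, 1326 and 440 in total RNA, or 733 ± 108 and 430 ± 12.4 CPM. Atp5b had 4932, 4178 and 3889 counts against 1771, 1412 and 466, or 699 ± 90 and 453 ± 17.4 CPM. The groups were apart for both genes. With the block the log2 fold change of Atp5a1 was 0.75 (edgeR adjusted p = 5.91e-07) and that of Atp5b 0.61 (adjusted p = 3.92e-05), with SEs of 0.13, and with the offset they were 0.69 and 0.52 and still passed. Atp5e, the epsilon subunit of the central stalk, rose by 0.67 with the block, and with the offset its value was 0.31 (edgeR adjusted p = 0.0520). Atp5c1, the gamma subunit that turns within the hexamer, had 765, 641 and 486 counts against 412, 223 and 48. Its level varied more in total RNA (74.3 ± 28.1 CPM) than on polyribosomes (100 ± 3.47 CPM), the groups overlapped, and the log2 fold change of 0.39 with the block did not pass (edgeR adjusted p = 0.0139). That value was 0.17 without pair 3, and the unpaired value of 0.38 became 0.17 when replicate 3 of total RNA was left out and 0.67 when replicate 1 was.

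The 3 genes of the c ring, whose sequences are given above, differed in level and in their tests. Atp5g3 had 967, 858 and 997 counts on polyribosomes and 253, 234 and 95 in total RNA, or 131, 129 and 205 CPM against 62.8, 78.4 and 91.1. The groups did not overlap, and the log2 fold change was 1.02 without the block (SE 0.21, edgeR adjusted p = 0.00917) and 0.80 with the block and offset (adjusted p = 1.89e-06). Atp5g2 had the fewest counts of the 3, with 143, 119 and 127 counts against 48, 36 and 16, or 21.1 ± 4.40 and 13.1 ± 1.94 CPM, without overlap. It rose by 0.67 with the block (edgeR adjusted p = 0.00255), and the value with the offset was 0.24 (adjusted p = 0.347). Atp5g1 had 451, 493 and 356 counts against 202, 185 and 53, or 69.5 ± 7.39 and 54.3 ± 6.63 CPM. Its lowest polyribosome library lay below its highest total RNA library, and 0.33 with the block did not pass (edgeR adjusted p = 0.0369). The differences between the 3 fold changes were not tested. Per kilobase of transcript, the level on polyribosomes was 216 ± 60.5 CPM for Atp5g3, 36.1 ± 7.50 for Atp5g2 and 26.0 ± 2.76 for Atp5g1, whose annotated transcripts are longer. The lengths were medians over annotated coding transcripts (2675.5 bases for Atp5g1, 586 for Atp5g2), and which transcripts were present was not examined. The order of Atp5g2 and Atp5g1 depends on these lengths, since Atp5g1 had the higher CPM. Transcripts of 20 other genes, 2 of them pseudogenes and 13 protein-coding, match Atp5g1 over at least 100 bases, the longest over 411 bases at 99.8% identity, and 2 pseudogenes match Atp5g2, the longest over 645 bases at 100% identity.

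All 7 genes of the peripheral stalk and the membrane part had positive values, and 4 of them rose with the block. Atp5o, the oligomycin sensitivity subunit that ties the stalk to F1, had 812, 690 and 589 counts against 314, 210 and 74, or 112 ± 8.81 and 73.1 ± 4.24 CPM, without overlap. It rose by 0.59 with the block (SE 0.13, edgeR adjusted p = 9.64e-05), and the value with the offset was 0.29 (adjusted p = 0.0628). The annotation holds a second entry under its symbol that overlaps 243 exonic bases, so its count is uncertain. Atp5l, the g subunit of the dimer contact, rose by 0.77 with the block and by 0.70 with the offset (edgeR adjusted p = 1.40e-04), with pair values of 0.48, 0.65 and 1.49. Transcripts of 9 pseudogenes and 1 coding gene match parts of Atp5l, so its count is uncertain. Atp5h and Atp5k rose with the block by 0.51 and 0.50 and did not pass with the offset. Atp5f1, Atp5j and Atp5j2 had 0.38, 0.27 and 0.29 with the block and did not pass.

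Atpif1, which encodes the inhibitor that stops ATP synthase from running backwards, did not share the direction of the enzyme's subunits. It had 379, 368 and 299 counts on polyribosomes and 266, 156 and 53 in total RNA, or 51.3, 55.4 and 61.6 CPM against 66.1, 52.2 and 50.8. The groups overlapped, the pairs gave -0.36, 0.08 and 0.27, and the log2 fold change was -0.05 with the block (SE 0.13, edgeR adjusted p = 0.802). Atp5s and Atp5sl carry the enzyme's prefix without being subunits of it. Atp5s had 38, 17 and 19 counts against 16, 17 and 5, with a log2 fold change of -0.28 (SE 0.35, edgeR adjusted p = 0.611), the lowest of complex V without the offset, and its pairs differed in sign. Atp5sl had a log2 fold change of 0.14.

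**Figure D4:**
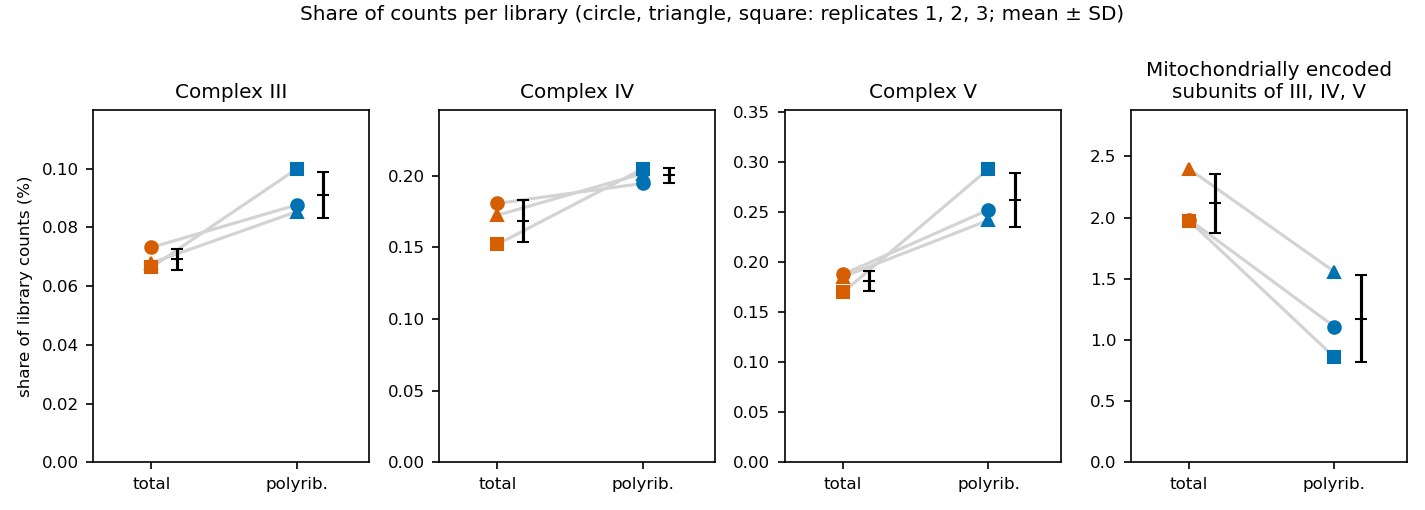
Share of all counts of a library, in percent, taken by the nuclear genes of complexes III, IV and V and by the mitochondrially encoded subunits of these complexes, with lines joining same-numbered libraries and mean ± SD (n = 3). For the nuclear genes of each complex all 3 polyribosome libraries are above the total RNA libraries, and for the mitochondrially encoded subunits all 3 are below.

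As a share of all counts, complex III took 0.0910 ± 0.00781% of the polyribosome libraries and 0.0692 ± 0.00356% of the total RNA libraries, complex IV 0.200 ± 0.00520% and 0.168 ± 0.0147%, and complex V 0.263 ± 0.0270% and 0.181 ± 0.00973% (SD, n = 3). Pair 3, which holds the shallowest library, had the highest ratio in each complex, from 1.35 in complex IV to 1.72 in complex V. Without that pair, a choice made after seeing the data, the block fit called 21 members higher and 2 lower. Of the 12539 genes tested in that fit, 1470 were called higher and 1602 lower.

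Per kilobase of transcript, the most abundant members on polyribosomes were Cox4i1 at 655 ± 51.3 CPM per kilobase, Cox8a at 527 ± 46.9 and Cox6a1 at 446 ± 64.1, followed by Atp5b at 365 ± 47.0, Cox6b1 at 353 ± 22.2 and Uqcr11 at 350 ± 77.7. The last 3 levels differed by less than their SDs, and the levels of Cox8a and Cox6a1 by less than the sum of theirs. Cox17 was the lowest of those tested at 0.354. All these levels rest on median annotated transcript lengths. The order of the 52 members was much the same in total RNA, with a Spearman correlation of 0.976 across genes and 8 of the 10 most abundant members shared.

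Genes that work with the members were read from the same fits. The list for complex I was set by name, as all genes whose symbol begins with Nduf, subunits and assembly factors alike. Of the 44 tested, 37 were positive in log2 fold change, and the median over the 44 was 0.41. The unpaired edgeR fit called 0 in either direction (22 were higher and 1 lower at an unadjusted p under 0.05, and DESeq2 called 6 higher), and with the block 17 were higher and 0 lower. With the block and offset, 7 were higher and 1 lower. Over all genes, 15.4% were higher and 17.1% lower at an unadjusted p under 0.05, and DESeq2 called 3.19% higher. The block called 11.8% of all genes higher and 13.2% lower, and the block with offset 7.79% and 6.36%. Of the 8 complex II genes, 2 rose with the block and 1 with the block and offset, counts too small to be set apart from these shares. Also tested were 20 assembly factors and other accessory genes of complexes III, IV and V that the name rule leaves out. Of these, 1 rose with the block and none was called in either direction with the block and offset. Their median log2 fold change without the block was 0.05. The 8 transcriptional regulators of respiratory genes had a median of -0.21, and 1 of them, Gabpb1, fell with the block (log2 fold change -1.06, edgeR adjusted p = 0.00103), where 13.2% of all genes were called lower. With the block and offset it did not pass (-0.79, adjusted p = 0.0226).

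Of the 5 mitochondrially encoded subunits tested, 1 fell without the block (2.36% of all genes did) and 2 fell with it (13.2%). The median log2 fold change over the 5 was -0.12 without the block and 0.08 with the block and offset. Together the 6 genes of this list, nearly all of whose counts were from mt-Co1 and mt-Cytb, took 1.11, 1.56 and 0.860% of the polyribosome libraries and 1.98, 2.40 and 1.98% of the total RNA libraries. mt-Cytb, the cytochrome b of complex III, was at 2403 ± 647 CPM on polyribosomes and at 5904 ± 575 CPM in the total RNA libraries. It fell by 1.30 on the log2 scale (SE 0.21, edgeR adjusted p = 0.00305). mt-Co1, the catalytic subunit of complex IV, had 9715 ± 2882 and 14561 ± 2007 CPM. It fell with the block by 0.62 on the log2 scale (edgeR adjusted p = 1.46e-04) and did not pass without it (adjusted p = 0.0918). With the block and offset, mt-Cytb stayed lower at -1.05 (adjusted p = 7.7e-08) and mt-Co1 did not pass at -0.32 (adjusted p = 0.0956). mt-Co2, mt-Co3 and mt-Atp6 had at most 144 counts in a library and did not pass with or without the block. With the offset added to the block, mt-Co3 was called higher at 0.74 (adjusted p = 0.00307). mt-Atp8 had too few counts to be tested. Copies of the mitochondrially encoded genes elsewhere in the genome were not searched for, so these counts are uncertain.

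In all, and counting the genes named above, 17 of the 58 members have a pseudogene copy of at least 95% identity over at least 100 bases, exons of 13 overlap a gene on the opposite strand and those of 3, Cox16, Cox17 and Atp5o, a gene on the same strand. Whether strand was used in counting is not given in the sources used here, so reads of these overlaps may belong to either gene. Matches to genes not annotated as pseudogenes are not counted among the 17. Cox5b matches the coding gene Gm11273 over 390 bases at 99.2% identity, and Cox4i1 matches Emc8 over 154 bases at 100%, so their counts are uncertain too. Atp5l matches the coding gene Gm5426 beside 9 pseudogenes, the longest match over 394 bases at 96.7%. Cox20 matches the coding gene Hnrnpu beside 1 pseudogene, the longest match over 355 bases at 97.2%. Parts of Cycs and Cox17 match 14 and 26 coding genes. The counts of these 4 members are likewise uncertain.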

How the data were processed

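RNA was measured in 6 libraries, 3 per group. Per the methods, the authors removed ribosomal RNA, made stranded libraries, aligned reads to mm10 (GRCm38) with STAR 2.5.2b and counted per gene of Gencode vM6 basic. They reported a lower average share of uniquely mapped reads for the polysomal fraction than for total RNA. Its bearing on the members, including those with near-identical copies, was not tested. They deposited whole-number counts per protein-coding gene, without normalization. Columns of the authors' DESeq2 comparison (mean, fold change with its error, statistic, p-values) were not used.

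Counts were tested with edgeR 4.0.16 in R 4.3.3 (TMM, filterByExpr, quasi-likelihood test, group as the only term, threshold 0.01). Preparations were split into aliquots and carry a shared number, and deviations of same-numbered libraries from their group means correlated across genes with r = 0.366, 0.258 and 0.38. Differently numbered libraries gave r from -0.349 to 0.108. Deviations within a group sum to 0, so these values are not independent of each other. Values with the replicate block are therefore given beside those without it. Log2 CPM used a prior count of 2. The offset was fitted per library with natural splines (5 df) on GC content and median transcript length from Gencode vM21 (GRCm38), found for 99.6% of the genes tested. DESeq2 1.42.0, other normalizations and filters, and leaving out each library were alternatives. The script was tested on simulated data.

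Depths of 1044955 to 7361580 counts limit weak genes, and limits from 0 counts (3 counts) cover counting error only. Replicates differed by more than sampling noise (chi-square per degree of freedom 3.58 to 21.5). Exact permutation of 3 against 3 cannot go below p = 0.1 and was not used. The sources used here do not say that the 3 preparations came from different animals. The p-values therefore rest on the spread between these samples, which may be technical. Both edgeR and DESeq2 share that spread in part across genes, so a p-value does not follow a gene's own spread alone. With the block, the SE was 0.13 both for Cox6a1 (pairs 0.92, 0.66 and 0.93) and for Atp5c1 (0.02, 0.37 and 1.11).

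Values were printed for members past the threshold, the highest and lowest log2 fold change of each complex, a list of core subunits and the tissue-restricted isoforms. Members and lists were chosen with earlier results of these data known.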

Additional observations from a re-analysis of the deposited data

How the results depend on the processing

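With the replicate block, 3063 genes were called over the whole table and 25 members higher, in place of 376 and 4. Other settings gave 690 and 10 (DESeq2), 1042 and 11 (no filter), 132 and 0 (offset for GC content and length), 1728 and 13 (block with offset), and 3072 and 21 (block without replicate 3, chosen after seeing the data). Scaling by total counts alone moved the median log2 fold change of all genes to -0.11 and gave 42 genes higher and 366 lower (10.3% higher, against 23.1%) and 1 member higher, with 41 of 52 members positive. Members called lower were 1 in place of 2 by DESeq2 and with at least 10 counts in every library, both of which give no adjusted p for Cox17. Leaving out each library gave 22 to 258 genes called, 0 to 3 members higher and 0 to 1 lower. The median over members was 0.28 with block and offset. For complex III it was 0.32 with the offset and 0.30 with block and offset, and for complex IV 0.20 and 0.18, 0.25 with total counts, and 0.25 without pair 3. Signs changed for Atp5s (0.060 with the offset, 0.037 with block and offset), Cox4i1 (-0.12 with either) and Atpif1 (0.034 without polyribosome replicate 1 and 0.11 without total RNA replicate 1, in a range of -0.10 to 0.11 with each library left out), none of them called in these fits. The cause was not tested. The block changed no call of the unpaired fit from called to not called among the members. Shares over nuclear genes only were 0.570% and 0.441%, in place of 0.560% and 0.424%. Between 41 and 45 members were positive with each library left out.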
